A study of Saccharomyces cerevisiae with 222 samples.

Results

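The libraries labelled GFP-B112 and B112 test an activation domain that is brought to the DNA-binding protein Ume6 in place of its natural partner Ime1. They were chosen by their strain labels and make up 24 of the 222 RNA-seq libraries of the series: 3 libraries of each strain at 0, 2, 4 and 6 h in sporulation medium (SPM). The same activation domain experiment holds 24 further libraries, of a GFP-IME1 and an IME1 strain, which serve here only for comparison.

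All of the strains were diploids (MATa/MATα) of the SK1 background of budding yeast, grown in presporulation medium and then moved to SPM. Every strain, the controls included, carried UME6(T99N), fused to 3V5 and a nanobody against GFP, in both copies of the gene, and a deletion of the endogenous IME1. B112 is a short acidic peptide encoded by a piece of bacterial DNA that activates transcription in yeast when it is held at a promoter. It was preceded by the SV40 nuclear localization signal, driven by the IME1 promoter and integrated at HIS3. GFP-B112 has superfolder GFP (sfGFP) in front of the same construct, so that the nanobody can hold it on Ume6, whereas untagged B112 has nothing for the nanobody to bind. The IME1 pair has IME1 in this place, with or without sfGFP, under the same promoter and at the same locus but without the SV40 signal. B112 and GFP are not among the genes analysed here, so their own transcripts were not measured, and the construct is made only when the IME1 promoter is active.

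Ume6 binds the URS1 motif in front of early meiotic genes and, in growing cells, represses them together with the histone deacetylase complex of Sin3 and Rpd3. On starvation Ime1 is made, binds Ume6 and turns the same genes on, among them those for the meiotic kinase Ime2, premeiotic replication and recombination. Later, the transcription factor Ndt80 turns on the middle genes for the meiotic divisions and for the spore. The T99N substitution lies in the part of Ume6 that Ime1 contacts, and the study describes it as preventing their binding. The tether through GFP is meant to bring an activation domain to Ume6 instead. In the study, UME6(T99N) strains with untagged IME1 at its own locus still formed some spores, whereas the untagged strains of the present experiment formed none.

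The change that all of these strains share is shown first, because the study describes it as preventing the direct binding of Ime1 to Ume6. The repair template used to write it and the reference sequence of the same 60 bases (S288C build R64, chromosome IV, 867201 to 867260, minus strand, inside the UME6 coding sequence) differ at 2 positions, which are in capitals and counted from 1 at the 5′ end of the template.
T99N repair template: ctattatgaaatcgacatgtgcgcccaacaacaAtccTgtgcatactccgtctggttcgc
UME6 reference: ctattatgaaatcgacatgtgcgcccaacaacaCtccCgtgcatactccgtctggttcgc
UME6 guide with its PAM in capitals: cgaaccagacggagtatgcaCGG
The first change, C34A, turns codon 99 from threonine (ACT) to asparagine (AAT). The other, C38T, leaves codon 100 as proline (CCC to CCT) and lies inside the PAM of the guide, which is on the plus strand of chromosome IV at 867202 to 867224.

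The deposited estimated counts per library summed to between 8286306 and 23448759 in the strain labelled B112 and to between 8629781 and 10991315 in GFP-B112. Of 5818 genes in the table, 5528 had enough counts to be tested. Levels are given as TPM, the abundance of a transcript corrected for its length and for depth, in the order of replicates 1, 2 and 3. Differences are log2 fold changes (log2FC) of GFP-B112 over B112 in normalized counts, with the standard error (SE) and the p-value of edgeR's quasi-likelihood test, adjusted by Benjamini-Hochberg (BH) over all tested genes (edgeR adjusted p). A gene was called at an adjusted p below 0.05. The study calls its replicates biological, but the labels do not say that they were separate cultures, and the p-values measure the spread between these libraries. GFP-B112 replicate 1 stood apart from replicates 2 and 3 of its strain (Pearson's r of log2 CPM 0.946 to 0.971, against 0.986 to 0.993 between replicates 2 and 3), and the main counts are also given without it. At 0 h, B112 replicate 1 (0.929 and 0.955, against 0.987) and IME1 replicate 2 (0.873 and 0.911, against 0.981) stood apart as well.

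The libraries labelled B112 carry a signal that their label does not name. In all 12 of them GAL4, which encodes the activator of the galactose genes, stood at 1345 to 3010 TPM, against 10.4 to 43.9 TPM in the other 36 libraries of the experiment. GAL1, the galactokinase gene and a classical target of Gal4, ranged from 74 to 17460 TPM in the libraries labelled B112 and from 6.65 to 27.8 TPM in the others. The galactose permease gene GAL2 (48.3 to 12399 against 2.06 to 22.1 TPM) and the epimerase gene GAL10 (102 to 16541 against 6.83 to 35.4 TPM) did not overlap with the others either. The ranges of GAL7, the uridylyltransferase gene, overlapped (37 to 4066 against 1.6 to 210 TPM). So did those of GAL80, the inhibitor of Gal4 (45.4 to 184 against 12.7 to 51.6 TPM), and of GCY1, another Gal4 target (15.8 to 693 against 5.08 to 246 TPM), a pair of genes named after their values were seen.

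**Figure D1:**
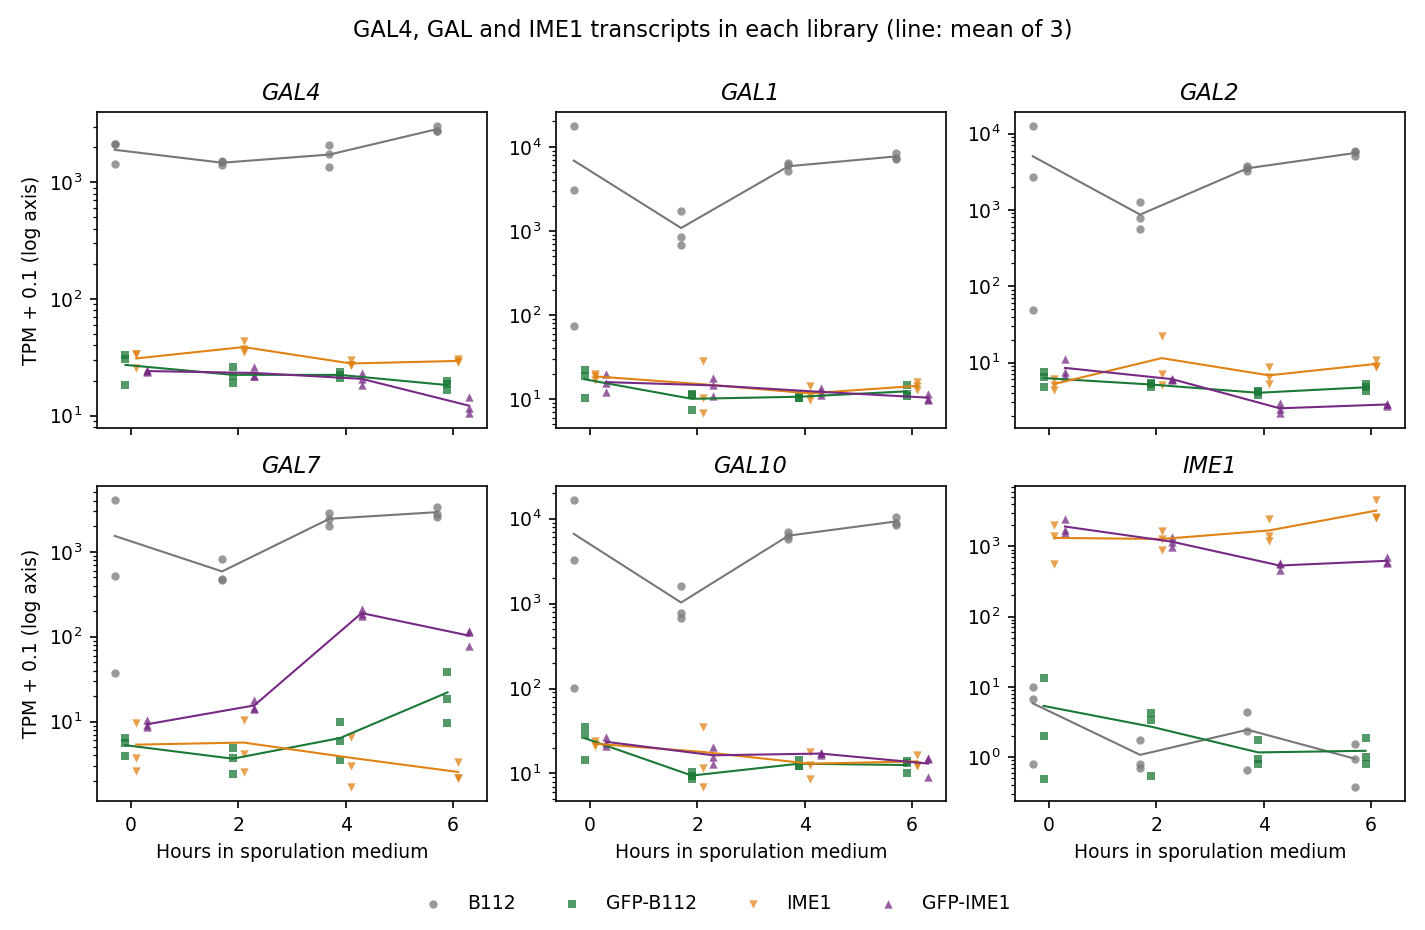
GAL4, GAL1, GAL2, GAL7, GAL10 and IME1 in the 4 strains of the activation domain experiment, as TPM + 0.1 on a log axis against hours in SPM. Points are single libraries and lines join the means; the libraries labelled B112 lie above all others for GAL4, GAL1, GAL2 and GAL10, and both B112 strains lie below both IME1 strains for IME1.

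At 6 h GAL4 had 3010, 2778 and 2764 TPM in the libraries labelled B112 and 18.5, 16.3 and 19.7 TPM in GFP-B112 (log2FC −7.38, SE 0.29, edgeR adjusted p = 2.12e-21). GAL1 had 8527, 7436 and 7082 TPM against 14.5, 10.7 and 11.5 TPM at that time (log2FC −9.38). At 0 h GAL1 was spread widely, at 74, 17460 and 3035 TPM. The labels name no GAL4 construct in any of these samples. The study's strain list also names a strain of the same background with an untagged GAL4 construct under the IME1 promoter, and which strain these 12 libraries came from was not tested. In the comparison of the label groups, the presence of GFP on B112 and this difference in GAL4 cannot be told apart. The main counts are therefore also given with the untagged IME1 libraries as the control, which have the same Ume6, lack GFP on the activator and have GAL4 in the lower range, but carry IME1 in place of B112 and its SV40 signal.

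IME1 followed the labels. It was at 0.274 to 13.4 TPM in the 24 libraries of the B112 pair and at 456 to 4564 TPM in the 24 libraries of the IME1 pair. HIS3 was listed at 0 in all 48 libraries. UME6 had 69.9, 57.9 and 48.5 TPM in B112 and 104, 92.8 and 92.2 TPM in GFP-B112 at 6 h (log2FC 0.63, edgeR adjusted p = 0.0477), a difference that lost its call against the IME1 libraries (log2FC 0.51, edgeR adjusted p = 0.117) and without any 1 of 5 single libraries, all but B112 replicate 1 (log2FC 0.55 to 0.67). URA3, a pyrimidine synthesis gene used as a marker, was lower in GFP-B112 at 6 h (25.5, 24.9 and 28.6 against 7.35, 11.1 and 11.3 TPM, log2FC −1.51).

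GFP-B112 libraries held high levels of early meiotic transcripts from 0 h on. The summed TPM of 6 early marker genes was 2794 to 10006 in GFP-B112 and 47.6 to 180 in B112. The summed TPM of 4 middle marker genes overlapped (32.8 to 2609 against 20.4 to 33.8), as did that of 2 late markers (14.7 to 66.9 against 49.4 to 1515). In these bulk samples, fewer cells that express a gene and less RNA per cell cannot be told apart.

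At 0 h, 1567 genes (28.3% of those tested) were higher and 1749 (31.6%) lower in GFP-B112, 60.0% in either direction. More than 1.5 on the log2 scale separated 10% upward and 7.69% downward. At 2 h, 1325 genes (24%) were higher and 1349 (24.4%) lower, 48.4% in all, with 5.66% and 4.38% past 1.5. At 4 h, 1163 genes (21%) were higher and 1325 (24%) lower, 45.0% in all, with 4.20% and 4.05% past 1.5. At 6 h, 1576 genes (28.5%) were higher and 1719 (31.1%) lower, 59.6% in all, with 7.81% and 8.07% past 1.5. More genes were called at 0 and 6 h than at 2 and 4 h.

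Against the IME1 libraries the counts were 1312 higher and 1702 lower at 0 h, 1207 and 1135 at 2 h, 1012 and 1136 at 4 h, and 1399 and 1574 at 6 h. Past 1.5 they were 390 and 396, 261 and 180, 188 and 183, and 348 and 315 against the IME1 libraries, and 554 and 425, 313 and 242, 232 and 224, and 432 and 446 against B112. Without GFP-B112 replicate 1 they were 1495 and 1593, 1307 and 1350, 1111 and 1016, and 1554 and 1543. Leaving out any 1 library of the pair at 0 h gave 1438 to 1614 higher and 1567 to 1670 lower. The split between directions depends on the scaling: on log2(TPM + 1), where the median of all genes lay at 0.31, 0.09, 0.24 and 0.03 instead of −0.06, −0.07, −0.04 and −0.05, the share of calls that were higher went from 47.3% to 70.2% at 0 h, from 49.6% to 63.3% at 2 h and from 46.7% to 71.7% at 4 h. Of the list counts that follow, those between the strains at 0, 2, 4 and 6 h kept their predominant direction on that scale except where stated. Changes over time and the comparison with the IME1 pair were not run on it.

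Most genes listed as Ume6 targets were higher in GFP-B112 at every time. Of 142 tested genes that the study lists as Ume6 targets, 89 were higher and 18 lower at 0 h, 99 and 10 at 2 h, 99 and 9 at 4 h, and 109 and 12 at 6 h, with median log2FC of 1.19, 1.27, 1.16 and 1.57. The study chose this list by responses to Ume6 loss in its mitotic libraries and by Ume6 binding peaks in an earlier ChIP-seq dataset. Because responses to Ume6 loss entered the choice, the list is not independent evidence of a direction. Against the IME1 libraries the counts were 96 and 12, 98 and 9, 96 and 9, and 106 and 12, and on log2(TPM + 1) 9 were lower at 0 h. Among all tested genes, 125 were higher by more than 1.5 at all 4 times, and 50 of these were Ume6 targets. Of the 80 genes lower by more than 1.5 at all 4 times, 1 was a target. Beside both counts, 142 of all 5528 tested genes are targets, so that few would be looked for among 80 genes in any case.

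Among the regulators of meiotic entry, 7 of 11 were higher at 0 h and 8 at each later time, with a median log2FC of 1.58 at 6 h. IME2, the kinase gene that is the best-known target of Ume6 and Ime1, was at 5739, 4772 and 5448 TPM in GFP-B112 at 0 h, against 147, 34.5 and 52.6 TPM in B112 (log2FC 5.76, SE 0.47, edgeR adjusted p = 4.67e-13). At 6 h it was at 3344, 3697 and 3583 TPM against 13.2, 12.9 and 11.4 TPM (log2FC 8.06, SE 0.52, edgeR adjusted p = 1.28e-15). The lowest GFP-B112 library, at 1789 TPM at 2 h, lay above every B112 library. RIM4, which encodes a translational repressor of meiotic transcripts, reached 7265, 6926 and 7369 TPM at 6 h against 445, 416 and 389 TPM. SLZ1, a subunit of the complex that methylates adenosine in mRNA, was at 1527, 1269 and 1623 TPM against 18.1, 29.3 and 18.4 TPM at 6 h. IME4, which encodes the methyltransferase itself, differed much less (89, 94.4 and 104 against 47.6, 43.7 and 39.9 TPM).

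PHO92, a reader of methylated mRNA, was among the largest differences at 2 h, with 237, 158 and 194 TPM against 0.776, 1.06 and 1.16 TPM (log2FC 7.44). RME1, a repressor of IME1 in haploid cells, was called at no time. Of 8 genes for Ume6 and its corepressors, 1, 3, 0 and 3 were higher and 1, 1, 0 and 1 lower at 0, 2, 4 and 6 h. Of all tested genes, 28.3%, 24% and 28.5% were higher and 31.6%, 24.4% and 31.1% lower at 0, 2 and 6 h. A few calls among 8 genes would therefore be looked for in any case. On log2(TPM + 1) 3 of the 8 were higher and 0 lower at 0 h and again at 4 h. RPD3, the deacetylase, was lower at 0 h (log2FC −0.39) and higher at 2 h (0.31), and SIN3 was called at no time.

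The double-strand break genes make the cuts that start recombination, and 9 of 11 were higher at each of the 4 times. SPO11, the enzyme that cuts, was at 80.8, 57.4 and 70.6 TPM in GFP-B112 at 0 h (log2FC 5.31, SE 0.32, edgeR adjusted p = 1.91e-16) and at 75.7, 76.8 and 84.9 TPM at 6 h (log2FC 4.22, SE 0.29, edgeR adjusted p = 5.82e-15). All 12 libraries labelled B112 were between 0.641 and 5.39 TPM. RAD50 and MRE11, subunits of the nuclease that processes breaks, differed by less, with 46.3, 56 and 63.1 against 25.3, 23.5 and 21.7 TPM for RAD50 at 6 h. XRS2 and SAE2, which act with them, were called at no time.

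Strand exchange pairs the cut DNA with its homolog, and 9, 10, 9 and 10 of its 12 genes were higher at 0, 2, 4 and 6 h. DMC1, the meiotic recombinase, was at 2763, 2617 and 2932 TPM in GFP-B112 and 3.67, 34.2 and 17.5 TPM in B112 at 0 h (log2FC 6.81, SE 0.54, edgeR adjusted p = 2.61e-13). It was at 415, 470 and 531 TPM at 2 h and at 894, 1084 and 1183 TPM at 6 h (log2FC 6.07, SE 0.52, edgeR adjusted p = 3.39e-12). Its accessory factor gene MEI5 had no count in B112 at 0 h and 492, 499 and 607 TPM in GFP-B112, at least 3077-fold higher with a floor of 3 counts over the 3 libraries. HOP2, which encodes a partner of Dmc1 in homolog pairing, had 482, 295 and 361 TPM and was at least 2120-fold higher on the same floor. SAE3, the partner of Mei5, was at least 509-fold higher at 0 h. RAD55, a recombination gene also used in growing cells, went the other way and was lower at 2, 4 and 6 h (log2FC −1.32 at 6 h).

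Crossover and synapsis genes build the synaptonemal complex, and 12, 11, 12 and 12 of 13 were higher at 0, 2, 4 and 6 h. ZIP1, its central element, was at 407, 326 and 384 TPM at 0 h (log2FC 4.69, SE 0.22) and 223, 230 and 260 TPM at 6 h (log2FC 4.19), with all B112 libraries between 8.78 and 13 TPM. GMC2, a helper of Zip1 assembly, had 173, 71.4 and 97.3 TPM at 2 h against 1.05, 0 and 1 TPM. MSH4, a crossover factor, had 83.8, 97.8 and 106 TPM at 6 h against 3.6, 4.12 and 3.14 TPM.

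All 5 genes of the chromosome axis were higher at every time, with median log2FC of 5.42, 4.14, 4.62 and 4.93 beside −0.06, −0.07, −0.04 and −0.05 for all tested genes. HOP1, an axis protein that signals from breaks, was at 632, 552 and 564 TPM at 0 h (log2FC 5.42, SE 0.17, edgeR adjusted p = 3.26e-25), 250, 210 and 236 TPM at 2 h, and 473, 543 and 574 TPM at 6 h (log2FC 4.93, SE 0.16, edgeR adjusted p = 3.7e-24). Its level in B112 was 5.76 to 17.4 TPM. REC8, the meiotic cohesin subunit, was at 383, 545 and 589 TPM at 0 h, 147, 161 and 196 TPM at 2 h and 292, 369 and 380 TPM at 6 h, and at 6.32 to 11.6 TPM in B112. The kinase gene MEK1, which acts on the axis to steer repair to the homolog, was at 345, 380 and 415 TPM at 6 h against 2.59, 3.5 and 3.7 TPM (log2FC 6.75). In GFP-B112 all 5 axis genes had every 2 h library below every 0 h library, as had 23.6% of all tested genes, and every 6 h library above every 2 h library, as had 30% of all tested genes.

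**Figure D2:**
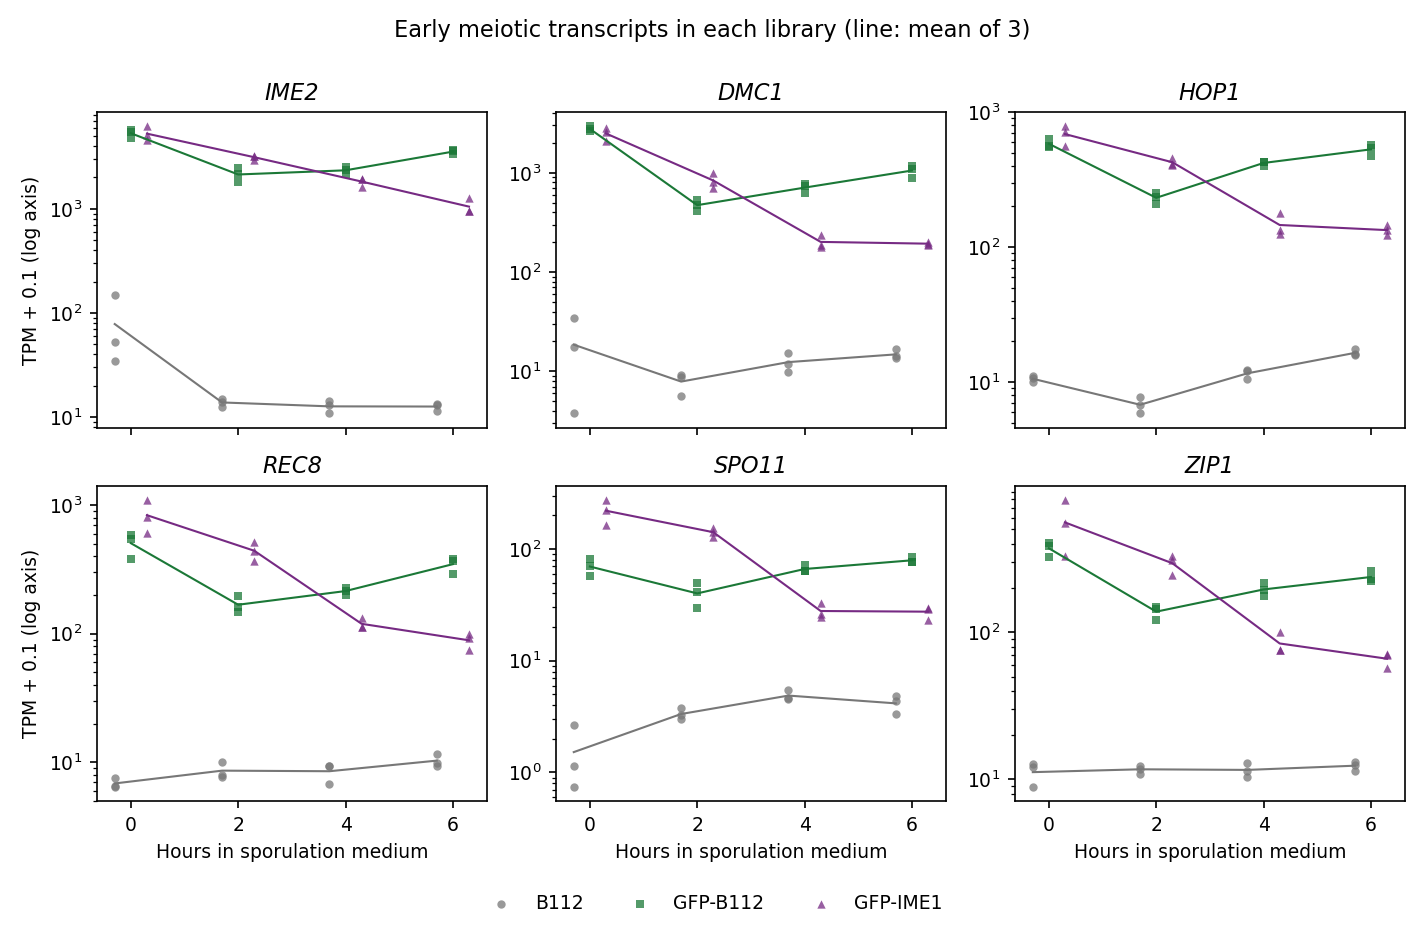
IME2, DMC1, HOP1, REC8, SPO11 and ZIP1 in B112, GFP-B112 and GFP-IME1, as TPM + 0.1 on a log axis against hours in SPM (points are libraries, lines join means). GFP-B112 lies above B112 at every time in all 6 genes, and HOP1, for example, ends at 473 to 574 TPM in GFP-B112 and 122 to 146 TPM in GFP-IME1.

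Genes that hold sister chromatids together and orient them in the first division were higher as well. Of 10 genes for monopolin and cohesion, 9 were higher at 0 h and all 10 at the later times. SPO13, which protects centromeric cohesin, was at 585, 495 and 564 TPM against 0.412, 1.46 and 0.452 TPM at 0 h (log2FC 9.17, SE 0.35) and at 332, 350 and 358 TPM at 6 h (log2FC 6.03). MAM1, the meiotic subunit of monopolin, was at 145, 49.9 and 72.5 TPM at 6 h against 1.42, 2.33 and 0.841 TPM, with GFP-B112 replicate 1 the highest. Of 3 genes for telomere-led movement, 2 were higher at 0 h and 3 afterwards. NDJ1, which ties telomeres to the nuclear envelope, had 378, 357 and 346 TPM at 0 h against 3 counts in all in B112, a ratio of 3685 with a 95% counting interval of 1261 to 17873.

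Premeiotic S phase genes were higher early and less so later. Of 21 genes, 20, 17, 12 and 14 were higher at 0, 2, 4 and 6 h, with 0, 0, 1 and 2 lower. RNR1, the large subunit of ribonucleotide reductase, was at 93.9, 61.6 and 61.5 TPM against 2.3, 2.6 and 3.1 TPM at 0 h (log2FC 4.38, SE 0.32, edgeR adjusted p = 2e-14). The difference was 1.50 on the log2 scale at 6 h. POL30, the replication clamp, was at 134, 80.2 and 97.6 against 4.67, 14.5 and 10.7 TPM at 0 h but at 56.3, 74.3 and 61.4 against 76.3, 65.7 and 55.9 TPM at 6 h, where the strains overlapped. CLB5, an S phase cyclin gene, was still higher at 6 h (133, 79.4 and 89.4 against 11.8, 10.3 and 9.62 TPM, log2FC 3.17). MCM3, a subunit of the replicative helicase, was lower at 6 h (log2FC −0.86, edgeR adjusted p = 0.00113). Against the IME1 libraries 7 of the 21 genes were higher at 4 h and 9 at 6 h.

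Of 9 histone genes tested, 6, 9, 2 and 9 were higher at 0, 2, 4 and 6 h, and none was lower. The low count at 4 h depended on the scaling, with 7 higher on log2(TPM + 1), and on the control, with 5 against the IME1 libraries. HTB2, a histone H2B gene, was at 2025, 83.5 and 163 TPM in GFP-B112 at 0 h against 28.4, 7.87 and 5.92 TPM, and replicate 1 of each strain was the highest of its group.

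Middle genes were called higher most often at 6 h, with uneven replicates, but several were already higher at 0 h. Among all tested genes, 28.3% were higher at 0 h and 28.5% at 6 h. Of 10 genes of the Ndt80 switch, 6 were higher and 1 lower at 0 h, 4 and 1 at 2 h, 7 and 0 at 4 h, and 9 and 0 at 6 h, when the median log2FC was 2.57. NDT80 itself was at 9.19, 14.5 and 12 TPM at 0 h, 14.1, 12.5 and 9.12 TPM at 2 h, 57.6, 11.1 and 12.9 TPM at 4 h and 255, 42.9 and 66.9 TPM at 6 h in GFP-B112, while all 12 libraries labelled B112 were between 4.32 and 14.3 TPM. It was therefore above the control in all 3 libraries at 6 h (log2FC 3.27, SE 0.44, edgeR adjusted p = 7.41e-08), and at 4 h mainly in replicate 1 (log2FC 1.20, SE 0.41, edgeR adjusted p = 0.0168). Without replicate 1 at all times the difference was 2.17 at 6 h (edgeR adjusted p = 1.55e-10) and was lost at 4 h (0.14, edgeR adjusted p = 0.642). The 4 h call was also lost without B112 replicate 1 at 4 h (1.09, edgeR adjusted p = 0.0645), with the 24 libraries of the pair alone (1.24, edgeR adjusted p = 0.0613) and against the IME1 libraries (0.97, edgeR adjusted p = 0.0601). SUM1, which represses middle genes in growing cells, was the gene of this list that was not called at 6 h (log2FC −0.32, edgeR adjusted p = 0.0853).

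Targets of Ndt80 showed the same order of replicates. SPS1, a kinase gene for spore formation, was at 672, 49 and 96.6 TPM at 6 h against 2.17, 1.7 and 1.4 TPM (log2FC 7.22, SE 0.84, edgeR adjusted p = 3.42e-09). CDC5, the polo kinase gene, was at 217, 55.7 and 91.4 against 16.7, 17.6 and 18.1 TPM (log2FC 2.71). CLB1, the main cyclin of the meiotic divisions, was lower in GFP-B112 at 2 h (9.44, 6.77 and 6.86 against 13.9, 26.1 and 20.3 TPM, log2FC −1.55, SE 0.47, edgeR adjusted p = 0.00696). At 6 h it was higher (141, 22.1 and 37 against 11.6, 17.5 and 20.8 TPM, log2FC 1.91, SE 0.46, edgeR adjusted p = 0.000574). Neither call held in every setting: the 2 h value was −0.93 against the IME1 libraries (edgeR adjusted p = 0.115), and the 6 h value was 0.78 without replicate 1 (edgeR adjusted p = 0.0648). AMA1, the meiotic activator of the anaphase-promoting complex, was at 415, 209 and 243 TPM against 16.1, 19.5 and 13.7 TPM at 6 h. SMK1, a kinase gene for spore wall assembly, was at 260, 77.7 and 99 against 18.3, 13.1 and 14.5 TPM at 6 h (log2FC 3.17).

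Prospore membrane genes, which enclose the nuclei in new membrane, went from 8 of 19 higher at 0 h and 7 at 2 h to 12 at 4 h and 18 at 6 h, with a median log2FC of 2.92 at 6 h. SPR3, a sporulation septin gene, was at 247, 43.5 and 35.8 TPM at 4 h and 1422, 215 and 340 TPM at 6 h, against 1.55, 2.12 and 2.34 TPM in B112 at 6 h (log2FC 8.25). Every GFP-B112 library lay above the control, and replicate 1 was the highest at both times. SPO73 was the member of this list that was not called at 6 h (log2FC −0.40, edgeR adjusted p = 0.315), and it was lower without GFP-B112 replicate 1 at 6 h (−0.92, edgeR adjusted p = 0.03).

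Of 25 spore wall and late genes, 17 were higher at 0 h and at 2 h, 18 at 4 h and 23 at 6 h, when the median log2FC was 6.07. Without GFP-B112 replicate 1 the 6 h counts were 8 of 10, 17 of 19 and 21 of 25 for the Ndt80, prospore and spore wall lists, and the median of the spore wall list was 4.35. Some of these genes were among the largest differences of all. SPS4, a sporulation gene, was at 5102, 549 and 986 TPM at 6 h against 0.278, 0.34 and 0.0738 TPM. RRT5, outside the list, was at 2069, 240 and 321 TPM against 0.338, 0.276 and 0.18 TPM. CDA2, a chitosan synthesis gene of the spore wall, was at 1504, 284 and 382 TPM against 0, 0.874 and 0.325 TPM. LDS1, a gene of lipid droplets that join the spore wall, was at 1102, 275 and 386 TPM against 0.145, 0 and 0 TPM, 1 count in all. Replicate 1 was the highest library in all of them. The lowest GFP-B112 library lay above every B112 library at 6 h, but the largest differences were picked only among genes without overlap. Of all 5528 tested genes, 1972 had every GFP-B112 library above every B112 library at that time.

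DIT1, the first enzyme of the dityrosine layer, was at 55.7, 12.6 and 10.7 TPM at 6 h against 5.82, 6.03 and 5.5 TPM (log2FC 2.11, SE 0.36, edgeR adjusted p = 5.23e-06). SPS100, a late spore wall gene, was the list member that was lower at all 4 times, with 10.3, 11.5 and 16.4 TPM at 0 h against 1513, 515 and 998 TPM in B112 (log2FC −6.65, SE 0.81, edgeR adjusted p = 6.59e-09). It was at 922, 369 and 1786 TPM in the IME1 libraries at 0 h, so that both untagged strains were high before sporulation began.

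**Figure D3:**
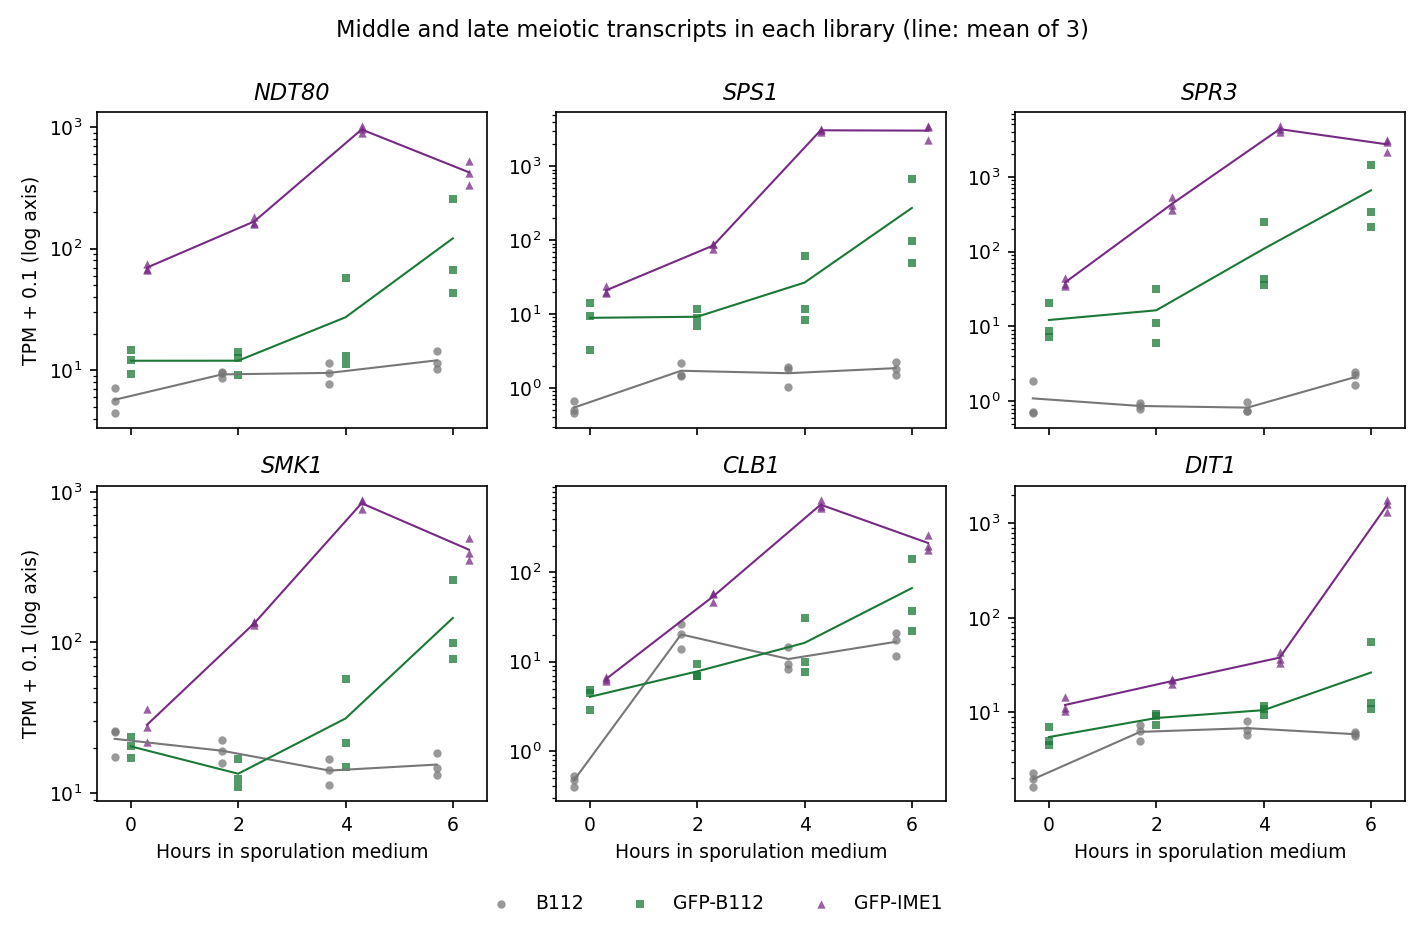
NDT80, SPS1, SPR3, SMK1, CLB1 and DIT1 in B112, GFP-B112 and GFP-IME1, as TPM + 0.1 on a log axis against hours in SPM (points are libraries, lines join means). In GFP-B112 replicate 1 is the highest point at 6 h in all 6 genes, as in NDT80 with 255 TPM against 42.9 and 66.9 TPM, and most GFP-B112 points lie below GFP-IME1 at 4 and 6 h.

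Outside the meiotic program, 18 of 20 heat shock chaperone genes were higher at 6 h, whereas at 0 h more were lower than higher. The counts were 9 lower and 3 higher at 0 h, 3 and 5 at 2 h, 1 and 7 at 4 h, and 0 and 18 at 6 h. On log2(TPM + 1) the counts were 8 lower and 5 higher at 0 h, and 0 and 12 at 4 h. HSP82, the inducible Hsp90 gene and also on the list of Ume6 targets, was at 1790, 2280 and 2252 TPM at 6 h against 190, 164 and 147 TPM (log2FC 3.57, SE 0.28, edgeR adjusted p = 2.32e-13). SSA3, a stress Hsp70 gene, was at 250, 558 and 477 TPM at 0 h against 213, 3010 and 2494 TPM (log2FC −2.59, SE 0.67, edgeR adjusted p = 0.00117), where the strains overlapped through B112 replicate 1, and on log2(TPM + 1) the call was lost (−1.53, limma adjusted p = 0.0543). At 6 h it was at 2920, 4068 and 4440 against 1024, 883 and 916 TPM (log2FC 1.93, SE 0.66, edgeR adjusted p = 0.0114). Against the IME1 libraries 17 of the 20 were higher at 6 h and none lower.

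Genes of growth on glucose were lower. Of 16 genes, 11, 11, 12 and 13 were lower at 0, 2, 4 and 6 h, and 1 was higher at 0 h alone, with a median log2FC of −1.84 at 6 h. CDC19, the pyruvate kinase gene, was at 251, 348 and 399 TPM at 6 h against 4067, 3419 and 4078 TPM (log2FC −3.63, SE 0.73, edgeR adjusted p = 5.79e-05). TDH3, the main glyceraldehyde-3-phosphate dehydrogenase gene, was at 13.3, 40.5 and 35.6 TPM at 0 h against 735, 3188 and 4782 TPM (log2FC −7.02, SE 0.90, edgeR adjusted p = 2.24e-08). ENO1, an enolase gene outside the list, had 19.7, 37.5 and 25.9 TPM at 2 h against 980, 3922 and 3210 TPM (log2FC −6.77). TDH3 and ENO1 are among the largest differences at those times, which were picked only from genes without overlap. CDC19 separated the strains without overlap at 6 h, as did 2188 of all 5528 tested genes in the same direction.

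Genes of gluconeogenesis and the glyoxylate cycle had 5 higher and 9 lower of 18 at 0 h, and 8 higher with 0, 1 and 1 lower at 2, 4 and 6 h. The 0 h direction depended on the scaling and the control, with 6 higher and 5 lower on log2(TPM + 1), and 5 and 3 against the IME1 libraries. At 2 h 14 were higher and 0 lower on log2(TPM + 1). PCK1, the first enzyme of gluconeogenesis, was at 1715, 1144 and 1200 against 2629, 2244 and 2697 TPM at 0 h (log2FC −1.28, SE 0.33, edgeR adjusted p = 0.00102), a call that was lost against the IME1 libraries (−0.28, edgeR adjusted p = 0.478). At 6 h it was at 3349, 1740 and 1455 TPM against 283, 209 and 217 TPM (log2FC 3.13, SE 0.35). Of 16 genes for carnitine shuttling and fatty acid oxidation, 4, 7, 5 and 5 were higher and 2, 0, 2 and 2 lower at 0, 2, 4 and 6 h, and the 7 at 2 h were all past 1.5. Of all tested genes, 24% were higher and 24.4% lower at 2 h, and 28.5% and 31.1% at 6 h. At 0 h 7 were higher and 1 lower on log2(TPM + 1), and 9 and 0 against the IME1 libraries. ADY2, the acetate transporter gene of the gluconeogenesis list, was at 10934, 11430 and 11442 TPM against 1295, 1790 and 1334 TPM.

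Of 14 arginine genes, 3 were higher and 9 lower at 6 h, beside 28.5% higher and 31.1% lower of all tested genes. CAR1, the arginase that breaks arginine down and a known Ume6 target, was at 408, 472 and 457 TPM against 48.3, 38.7 and 51.3 TPM at 6 h (log2FC 3.18). ARG4, the last enzyme of arginine synthesis, was at 132, 117 and 90.6 TPM against 500, 754 and 962 TPM (log2FC −2.81, SE 0.31, edgeR adjusted p = 1.43e-09). The list had 3 higher and 8 lower at 4 h, but 5 lower on log2(TPM + 1) and 3 and 3 against the IME1 libraries at that time. INO2, the activator of phospholipid genes, was lower at 6 h (18.5, 20.3 and 21.1 against 99.1, 79.5 and 68.3 TPM). Its list of 13 inositol and phospholipid genes had 4 in each direction at 6 h, about the shares of all tested genes.

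Genes of the mitotic cycle had 8 of 14 higher and 2 lower at 0 h, and 3 higher and 6 lower at 6 h. Of all tested genes, 28.3% were higher and 31.6% lower at 0 h, and 28.5% and 31.1% at 6 h. A few calls in each direction among 14 genes would therefore be looked for in any case. CLN3 and PCL1, both G1 cyclin genes, were lower at 6 h, with 24.2, 22.8 and 22.2 against 111, 90.2 and 85.4 TPM for CLN3 and 7.72, 15.3 and 12.8 against 99, 118 and 108 TPM for PCL1. Of 15 haploid and mating genes, 8, 1, 1 and 5 were higher and 2, 1, 1 and 2 lower at 0, 2, 4 and 6 h, beside 28.3% higher and 31.6% lower of all tested genes at 0 h and 28.5% and 31.1% at 6 h. Against the IME1 libraries 4 were higher and 3 lower at 0 h, and 4 and 4 at 6 h. Their summed level was 146 to 333 TPM in GFP-B112 and at most 167 TPM in B112. AGA2, a mating agglutinin gene, was at 642, 355 and 412 TPM at 0 h against 0, 1.11 and 0 TPM, 1 count in all.

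**Figure D4:**
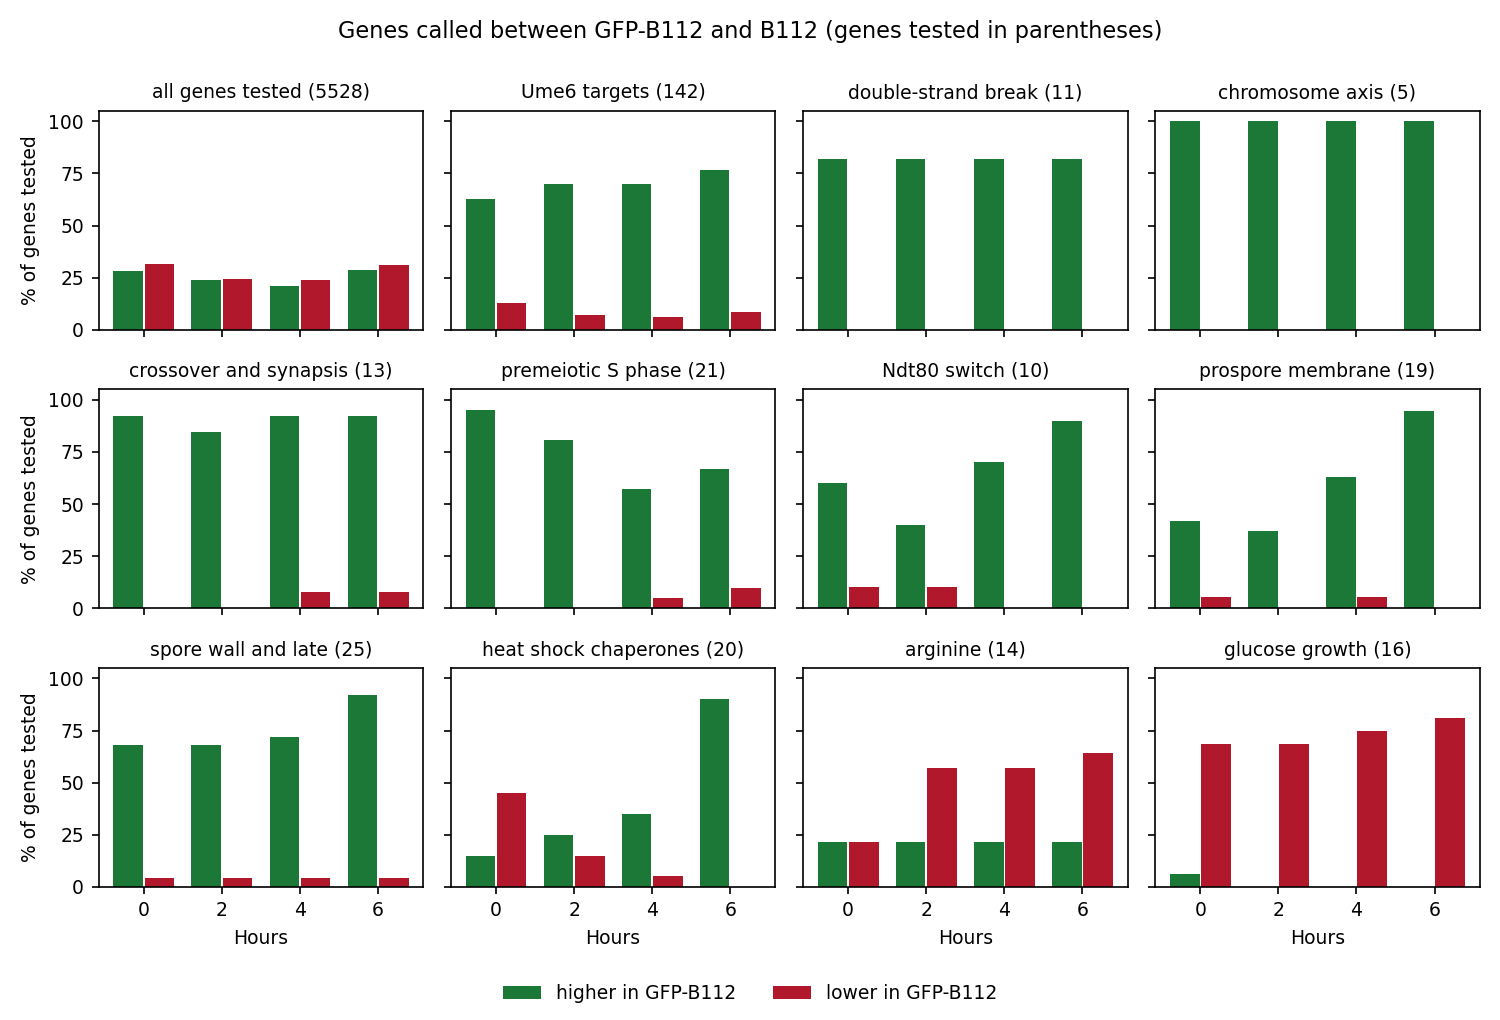
Percentage of tested genes that were called higher (green) or lower (red) in GFP-B112 than in B112 at 0, 2, 4 and 6 h, for all 5528 tested genes and 11 gene lists. The axis list is at 5 of 5 higher throughout, the heat shock list goes from 9 of 20 lower at 0 h to 18 of 20 higher at 6 h, and the glucose list is mostly lower at all times.

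The largest fitted log2FC in each direction were taken at each time among called genes of at least moderate level whose libraries did not overlap. Their order depends on the small count that the fit adds to genes with few or no counts in B112. At 0 h they were MEI5, HOP2, NDJ1, SPO19 and AGA2 upward and GAL2, GAL1, GAL7, GAL10 and TDH3 downward. At 2 h NDJ1, PHO92, IME2, GMC2 and MEI5 led upward, and GAL2, GAL7, GAL10, GAL1 and ENO1 downward. At 4 h LDS1, SPS4, NDJ1, RRT5 and MEI5 led upward, and GAL2, GAL1, GAL10, GAL7 and GAL4 downward. At 6 h LDS1, SPS4, RRT5, CDA2 and HXT14 led upward, and GAL2, GAL10, GAL1, GAL4 and GAL7 downward. SPO19, a spore wall gene, had no count in B112 at 0 h and 13.8, 42.6 and 28.6 TPM in GFP-B112, at least 158-fold higher on the floor of 3 counts. This bound, 7.3 on the log2 scale, lies below the log2FC of 9.17 of SPO13 at 0 h. HXT14, of the hexose transporter family, had 464, 64.6 and 95.2 TPM at 6 h against 0.0814, 0.133 and 0.216 TPM, with replicate 1 again the highest.

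The strains also differed in how transcripts changed over time. By edgeR's test of strain by time, 2815 genes (50.9% of those tested) differed in their course, and 2238 against the IME1 libraries. Changes were compared with their sign, so that a smaller change can also be a fall in GFP-B112 beside a rise in B112. From 0 to 6 h, the change was larger in GFP-B112 for 1210 genes (21.9%) and smaller for 1144 (20.7%), and against the IME1 libraries for 1060 and 857. The heat shock list had 19 of 20 larger, the prospore list 15 of 19 and the spore wall list 14 of 25, while 13 of 21 S phase genes were smaller and none larger. STI1, a cochaperone gene, is an example (503, 375 and 402 TPM at 0 h and 652, 790 and 835 TPM at 6 h in GFP-B112, 500, 725 and 755 and then 275, 252 and 268 TPM in B112), with a difference in change of 2.45 on the log2 scale (edgeR adjusted p = 1.55e-06). For NDT80 the difference was 2.57 (edgeR adjusted p = 0.000678) and for RNR1 −2.88 (edgeR adjusted p = 4.7e-07).

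Between 4 and 6 h few genes changed differently, with the signed change larger in GFP-B112 for 71 (1.28%) and smaller for 46 (0.832%). This count was not stable. With the replicate number as a block within each strain it was 138 and 153, against the IME1 libraries it was 14 and 1, and without GFP-B112 replicate 1 it was 99 and 46. Leaving out GFP-B112 replicate 3 at 4 h alone took it to 1 and 0. The genes with the largest differences were YDR042C (3.89), PIR5 (3.70), CTS2 (3.46), IRC18 (3.29) and CWP1 (3.14). PIR5, a cell wall protein gene, was at 1338, 92.5 and 165 TPM at 6 h against 8.28, 8.01 and 7.19 TPM, with replicate 1 far above the others. The most negative differences in change were those of RPS7A (−2.16), RPA49 (−2.15), UTP13 (−2.02), RPL17B (−2.0) and SK1_11T02960.1 (−1.97). These include genes for ribosomal proteins and for RNA polymerase I. RPA49, a subunit of that polymerase, was at 34.4, 15.2 and 37.4 TPM at 4 h and 13.6, 15.2 and 10.7 TPM at 6 h in GFP-B112, and at 8.92, 8.62 and 11.2 and then 20.1, 23.5 and 22.9 TPM in B112. All 10 lost their call with the 24 libraries of the pair alone in the fit, and the 5 with positive differences lost it without GFP-B112 replicate 1 at 6 h (1.60 for CTS2 to 2.10 for CWP1).

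The effect of GFP differed between B112 and IME1 in few genes at 0 and 2 h and in many at 4 and 6 h. The difference between GFP-B112 and B112 was compared with that between GFP-IME1 and IME1 by edgeR's quasi-likelihood test of their difference, in which the libraries labelled B112 again bear their GAL4 signal. Effects were compared with their sign, so that a larger effect on B112 can also be a weaker fall below the control. At 0 h the effect was larger on B112 for 128 genes (2.32%) and smaller for 92 (1.66%). At 2 h it was larger for 169 (3.06%) and smaller for 304 (5.50%). The split at 2 h depended on the scaling, with 35.7% of the calls larger here and 50.5% under RLE size factors (257 larger and 252 smaller). Leaving out 1 library moved the 0 h counts to between 74 and 306 larger, lowest without GFP-B112 replicate 3 and highest without IME1 replicate 1, and the 2 h count of larger effects to as few as 77, without B112 replicate 2. At 4 h the effect was larger for 1336 (24.2%) and smaller for 1243 (22.5%), and at 6 h for 1099 (19.9%) and 1289 (23.3%). The median difference over all genes was 0.26 at 4 h and 0.16 under RLE size factors. When GFP-B112 and GFP-IME1 were set against each other directly, 510 genes were higher and 486 lower in GFP-B112 at 0 h, 709 and 802 at 2 h, 1993 and 1485 at 4 h, and 1508 and 1632 at 6 h.

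Most genes of several early lists had the larger effect of GFP on B112 at 6 h, with each pair set against its own control. At that time the effect of GFP was larger on B112 in 5 of 5 axis genes, 9 of 11 double-strand break genes, 9 of 13 crossover and synapsis genes, 8 of 10 monopolin and cohesion genes and 18 of 21 S phase genes, where 1 was smaller. DMC1 was at 186, 192 and 202 TPM in GFP-IME1 and 894, 1084 and 1183 TPM in GFP-B112 at 6 h (difference of log2FC 2.51, edgeR adjusted p = 0.00116), and IME2 was at 1256, 948 and 943 TPM in GFP-IME1 (difference 2.70, edgeR adjusted p = 0.000176). SPO11 went the other way at first: GFP-IME1 was at 223, 274 and 163 TPM at 0 h and GFP-B112 at 80.8, 57.4 and 70.6 TPM (difference −1.83, edgeR adjusted p = 0.0193), a call that was lost without B112 replicate 2 (−1.05, edgeR adjusted p = 0.23). By 6 h GFP-IME1 had 29.1, 29.8 and 23.2 TPM and GFP-B112 75.7, 76.8 and 84.9 TPM. From 2 to 6 h all 5 axis genes went down without overlap in GFP-IME1, as did 67.6% of all tested genes, and up without overlap in GFP-B112, as did 30% of all tested genes.

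Middle and late genes mostly had the smaller effect of GFP on B112, again with each pair set against its own control. At 4 h the effect of GFP was smaller on B112 in 8 of 10 genes of the Ndt80 switch, 19 of 19 prospore membrane genes and 19 of 25 spore wall genes, and at 6 h in 9, 16 and 15. NDT80 stood at 969, 1013 and 888 TPM in GFP-IME1 at 4 h against 57.6, 11.1 and 12.9 TPM in GFP-B112 (difference −5.63, edgeR adjusted p = 1.27e-09), and at 525, 418 and 332 TPM at 6 h against 255, 42.9 and 66.9 TPM (difference −2.30, edgeR adjusted p = 0.00164). DIT1 was at 1321, 1587 and 1767 TPM in GFP-IME1 at 6 h and at most 55.7 TPM in GFP-B112 (difference −6.04, edgeR adjusted p = 3.76e-11). CLB1 differed most at 4 h (difference −6.09, edgeR adjusted p = 2.92e-09). Heat shock genes had a larger effect of GFP on B112 in 8 of 20 at 6 h, and HSP82 was at 595, 468 and 387 TPM in GFP-IME1 against 1790, 2280 and 2252 TPM in GFP-B112.

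**Figure D5:**
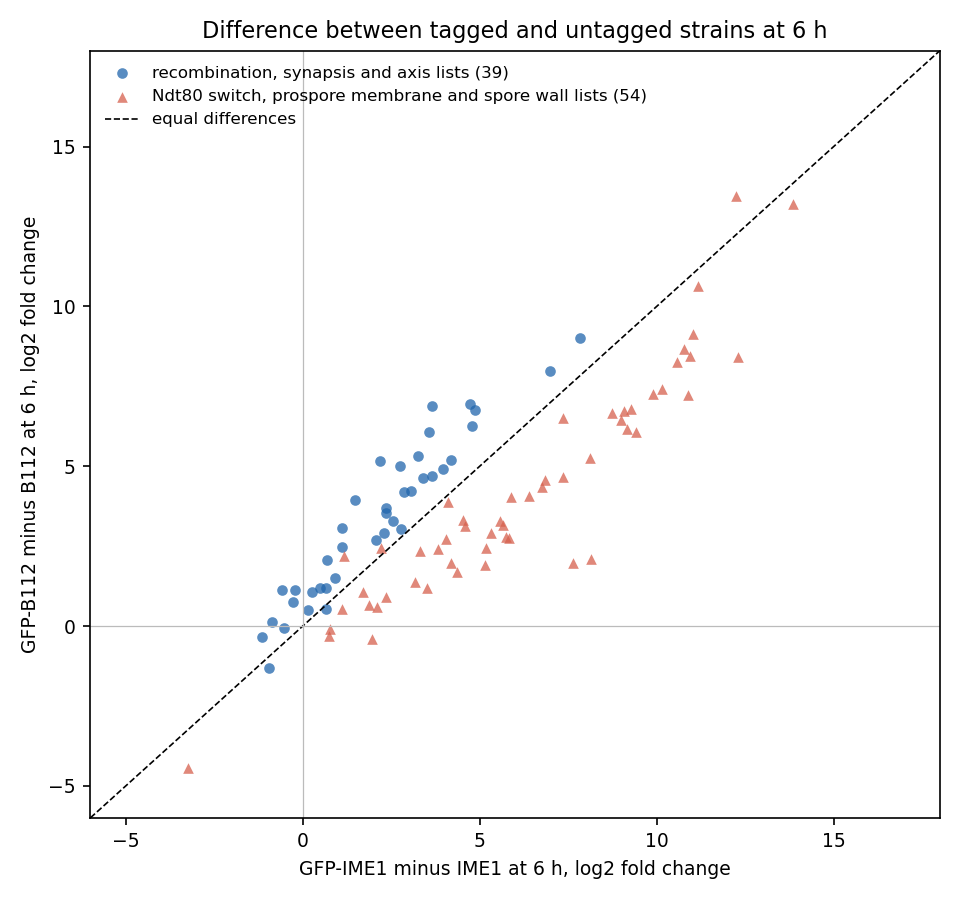
Log2FC of GFP-B112 over B112 at 6 h against log2FC of GFP-IME1 over IME1 at 6 h, with a dashed line where both are equal. Of 39 recombination, synapsis and axis genes 37 lie above the line, and of 54 genes of the Ndt80, prospore membrane and spore wall lists 51 lie below it. Of all 5528 tested genes, 49.7% lie above it and 50.3% below.

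The 5 genes with the largest positive difference between the effects at 6 h were SK1_13T00410.1 (4.07), TDH1 (3.53), HOP2 (3.24), MND1 (2.97) and SMC3 (2.87). HOP2 and MND1 form the complex that pairs homologs, and HOP2 was at 299.8, 278 and 302 TPM in GFP-B112 and 98.8 to 116 TPM in GFP-IME1. SMC3, a cohesin subunit, was at 82.2, 107 and 106 TPM in GFP-B112, 39.2, 24.6 and 22 TPM in B112, 25, 23.3 and 18.2 TPM in GFP-IME1 and 113, 58 and 79.4 TPM in IME1. The positive value of TDH1 came from levels below the controls in both pairs, and its call was lost without IME1 replicate 3 (2.78, edgeR adjusted p = 0.0518), as was that of SK1_13T00410.1 without IME1 replicate 2 (3.52, edgeR adjusted p = 0.076). TDH1 was at 47.2 to 158 TPM in GFP-B112 and 5.86, 6.09 and 5.31 TPM in GFP-IME1. The 5 largest negative differences were GAL7 (−13.28), GAL10 (−10.28), GAL1 (−9.66), GAL2 (−9.27) and YDL218W (−7.00). The first 4 rest in large part on the libraries labelled B112, and GAL7 also differed between the other strains, where GFP-B112 exceeded the IME1 libraries at 6 h (log2FC 3.16, edgeR adjusted p = 0.00132). YDL218W was at 1069, 1181 and 1872 TPM in GFP-IME1 and 42.2, 12.3 and 9.68 TPM in GFP-B112 at 6 h.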

How the data were processed

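RNA was selected by poly(A) and sequenced as single reads of 100 bp from stranded libraries. The authors assigned reads to SK1 transcripts with kallisto, whose version is not given in the sources used here, at a fragment length of 160 and an SD of 20, and deposited estimated counts, of which 95.4% to 96.6% are whole numbers, and TPM of the same runs. HISAT2, SAMtools and StringTie are also named in the submitters' processing notes. The estimated counts were rounded to whole numbers here. Columns were matched to samples by their names, and no 2 libraries were identical. Symbols came from RefSeq for 5395 of 5818 genes, 108 had no name, and the 60 genes with a composite or shared name are uncertain. MFA1, MFA2, HXT6, HXT7 and HHF2 were not analysed here. Results for some single genes are not reported here.

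All 48 libraries of the experiment were fitted in edgeR 4.0.16 (R 4.3.3) with TMM scaling, filterByExpr and a mean for each strain and time. Differences were tested by the quasi-likelihood test with BH adjustment over 5528 genes at 0.05, with 1.5 on the log2 scale as a second threshold. TPM were used for levels only. The fit was tested on simulated data drawn from the 6 h groups, where 79% of 2-fold and 100% of 4-fold changes were recovered with 17 false calls. The simulation changed 100 genes by each size, none with few counts in B112, and no simulated library stood apart. It therefore does not give the recovery or false calls in the data themselves, where 59.6% of genes were called at 6 h. Alternatives were DESeq2 1.42.0, RLE scaling, no filter, the 24 libraries alone, replicate blocks, limma 3.58.1 on log2(TPM + 1) and log2(TPM + 0.1), and each library left out in turn. The comparison and the gene lists were chosen with earlier results of these data known. Added after seeing the data were the fits without GFP-B112 replicate 1, without replicate 1 of both strains, with a replicate block at 0 h alone and with the IME1 libraries as the control. Genes were named as list members, as the 5 largest differences in each direction among called genes whose mean log2 CPM was 2 or more (without overlap between strains for the 4 times), or as genes altered in the strains; GAL80, GCY1 and values of other single genes were chosen after seeing them. Floors (3 counts) and 95% counting intervals cover counting error only.

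Same-numbered libraries of the B112 pair deviated together at 0 h (correlation of deviations 0.456, 0.355 and 0.338) but not in every pair at the later times, and the block at 0 h changed no count of calls by over 1.5 times. Within a strain, same-numbered libraries at 4 and 6 h deviated together (0.574, 0.384 and 0.286 in B112, 0.690, 0.306 and 0.169 in GFP-B112), and the blocked count is given in the text.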

Additional observations from a re-analysis of the deposited data

Results flagged for a closer look

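The results here are those where the same contrast differed between groups by edgeR's quasi-likelihood test (BH-adjusted), either in the change over time of GFP-B112 against B112 or in the effect of GFP on B112 against its effect on IME1. Changes and effects are compared with their sign, so that larger and smaller do not refer to size alone. Their causes were not tested, and each result rests in part on the libraries labelled B112 with their GAL4 signal.

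The strains differed in their course over time in 2815 genes. The change from 0 to 6 h was larger in GFP-B112 in 1210 genes and smaller in 1144, and that from 4 to 6 h in 71 and 46. From 0 to 6 h the differences in change, on the log2 scale, included the chaperone genes SSA3 (4.52), STI1 (2.45) and HSP82 (1.56), the sporulation genes SPR3 (5.07) and NDT80 (2.57), PCK1 of gluconeogenesis (4.40), and RNR1 of DNA precursor synthesis (−2.88). From 4 to 6 h the difference in change was positive for YDR042C (3.89), PIR5 (3.70), CTS2 (3.46), IRC18 (3.29), CWP1 (3.14), SMK1 (2.33) and NDT80 (2.07). It was negative for RPS7A (−2.16), RPA49 (−2.15), UTP13 (−2.02), RPL17B (−2.0) and SK1_11T02960.1 (−1.97). The call of NDT80 from 4 to 6 h (edgeR adjusted p = 0.0488) was lost with the 24 libraries of the pair alone (2.07, edgeR adjusted p = 0.162), against the IME1 libraries (2.03, edgeR adjusted p = 0.099), and on leaving out any 1 library at 4 or 6 h except GFP-B112 replicate 1 at 4 h and replicates 2 and 3 at 6 h, with the lowest value without GFP-B112 replicate 1 at 6 h (0.91, edgeR adjusted p = 0.376). That of SMK1 was lost with the 24 libraries alone (2.33, edgeR adjusted p = 0.062), without GFP-B112 replicate 1 at 6 h (1.60, edgeR adjusted p = 0.0786) and without GFP-B112 replicate 3 at 4 h (2.13, edgeR adjusted p = 0.0699).

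The effect of GFP was larger on B112 than on IME1 in 128 genes at 0 h and smaller in 92, followed by 169 and 304 at 2 h, 1336 and 1243 at 4 h, and 1099 and 1289 at 6 h. At 0 h the difference was −1.83 for SPO11 and −2.37 for NDT80, whose call was lost without B112 replicate 3 at 0 h (−2.18, edgeR adjusted p = 0.0525). At 2 h it was −2.23 for SPO11, −3.62 for NDT80 and −0.82 for HOP1. At 4 h it was −5.63 for NDT80, −6.75 for SPS1, −6.09 for CLB1 and 2.00 for DMC1, so that middle genes and an early gene lay on opposite sides.

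At 6 h the difference was positive for the early genes HOP2 (3.24), MND1 (2.97), SMC3 (2.87), IME2 (2.70), DMC1 (2.51), PCH2 (2.48) and HOP1 (0.97). It was also positive for SK1_13T00410.1 (4.07), TDH1 (3.53) and HSP82 (1.56). TDH1 lay below the controls in both pairs, and SMC3 in the IME1 pair. The difference was negative for NDT80 (−2.30), SPS1 (−3.66), DIT1 (−6.04) and YDL218W (−7.00). The values of GAL7 (−13.28), GAL10 (−10.28), GAL1 (−9.66) and GAL2 (−9.27) rest in large part on the libraries labelled B112.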

How the results depend on the processing

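Every call rests on 3 libraries a side, and the libraries labelled B112 differ from GFP-B112 in GAL4 as well as in GFP. Counts between the strains at 0, 2, 4 and 6 h moved by less than 1.5 times when any 1 library was left out, under DESeq2, RLE scaling, no filter, the 24 libraries alone and the replicate block (1581 higher and 1742 lower at 0 h, 1588 and 1728 at 6 h with the block). Apart from the change from 4 to 6 h, no count moved by over 1.5 times with a block, and no call of a named gene changed. Depth limits genes with few counts in B112, whose ratios are bounds or have wide counting intervals.

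On the TPM scale the counts of lower genes were smaller, at 957, 950 and 949 at 0 h, 857, 878 and 877 at 2 h, and 680, 691 and 692 at 4 h (with log2(TPM + 0.1), log2(TPM + 1), and a mean TPM of at least 1). Higher genes at 4 h numbered 1752 in both of the latter. Past 1.5, 849 genes were higher at 0 h with log2(TPM + 0.1), 224, 208 and 208 were lower at 0 h, and 146 and 147 were lower at 4 h.

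The change from 4 to 6 h was larger in 11 and smaller in 1 gene with the 24 libraries alone, 172 and 78 by DESeq2, 138 and 153 with the replicate block within strain, 14 and 1 against the IME1 libraries, and smaller in 22 without replicate 1 of both strains. Leaving out 1 library gave 1 to 127 larger and 0 to 89 smaller. The effect of GFP was larger on B112 than on IME1 at 0 h in 219 genes and smaller in 206 without GFP-B112 replicate 1, and in 74 to 306 and 48 to 175 with 1 library left out. At 2 h it was larger in 353 by DESeq2 and 257 under RLE, with 77 to 221 larger and 192 to 315 smaller when 1 library was left out. With the IME1 libraries as the control of both pairs the control cancels, so that GFP-B112 is set directly against GFP-IME1, with 510 genes higher and 486 lower at 0 h, and 709 and 802 at 2 h. The causes were not tested.

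For the single genes named, over all alternatives together, 3081 values kept direction and call, 132 lost the call and 14 gained it. The 7 that changed sign were, against the IME1 libraries, GAL2 (0.24), GAL7 (0.059) and GAL10 (0.19) at 0 h, GAL7 at 4 h (0.61) and 6 h (3.16), and IME1 at 6 h (−11.46), where the control itself carries IME1. Without replicate 1 of both strains NDT80 at 4 h was −0.018.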
